A study of Homo sapiens with 9 samples.

Results

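The genes described here carry out or control the synthesis of cholesterol and fatty acids. A fixed list of 33 such genes was looked up by symbol in a table of 16612 genes, and 31 were found. SC5D and ABCG1 are not in the table and were not analysed here. The 31 genes fall into 5 roles, among them the control of SREBP (5 genes) and the mevalonate steps (6 genes). The others are the steps from squalene to cholesterol (10 genes), fatty acid synthesis (8 genes) and sterol transport (2 genes). FDFT1, which makes squalene, is counted with the steps from squalene to cholesterol.

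RNA was sequenced from HNT34, a human acute myeloid leukemia line with high EVI1, after lentiviral delivery of a non-targeting shRNA (NT, n = 3 libraries) or of an shRNA against EVI1, sh#16 (n = 3) or sh#87 (n = 3). The cells were collected 3 days after selection, and all groups received the same vector with a red fluorescent protein and a puromycin resistance gene. The titles of the sh#87 libraries give the number 87, whereas another field of their labels gives a different number. The model is 1 cell line, and nothing states whether the 3 libraries of a group came from separate cultures, so that every SD and p refers to the spread between libraries, which may be technical. In bulk RNA, fewer cells of a type and less RNA per cell cannot be told apart.

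Cells make cholesterol from acetyl-CoA by way of mevalonate and squalene, and the same acetyl-CoA feeds the synthesis of fatty acids. Both arms are driven by the SREBP transcription factors, which SCAP carries out of the endoplasmic reticulum when sterols are scarce and which INSIG proteins hold back when sterols are plentiful. SREBP2 acts mainly on cholesterol genes and SREBP1 mainly on fatty acid genes, and many of their target promoters combine a sterol regulatory element with a CCAAT box, the site of the NF-Y factor.

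The promoters of 4 genes are printed because their genes are among those that rose most (INSIG1, MVK and MVD) or encode the factor itself (SREBF2). They come from RefSeq on GRCh38.p14, lie upstream of the start site that the promoter table uses, and read 5′ to 3′ on the strand of the gene. Capitals mark a sterol regulatory element (TCACNCCA), an E-box (CACGTG) or a CCAAT box (CCAAT), each on either strand. The stretches are, in this order, chr7:155297696-155297840 on the plus strand, chr12:109573572-109573764 on the plus strand, chr16:88663160-88663262 on the minus strand and chr22:41832960-41833015 on the plus strand. The start site used for MVK lies within the span of the gene in RefSeq (chr12:109573272-109598125), so that its stretch is not upstream of the whole gene.
INSIG1: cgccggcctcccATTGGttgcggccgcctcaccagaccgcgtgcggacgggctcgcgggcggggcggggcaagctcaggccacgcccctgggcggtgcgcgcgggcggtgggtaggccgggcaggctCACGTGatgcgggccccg
MVK: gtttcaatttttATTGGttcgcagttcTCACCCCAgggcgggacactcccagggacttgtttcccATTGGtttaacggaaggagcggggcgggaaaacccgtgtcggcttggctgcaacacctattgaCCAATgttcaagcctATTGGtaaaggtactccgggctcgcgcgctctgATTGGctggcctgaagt
MVD: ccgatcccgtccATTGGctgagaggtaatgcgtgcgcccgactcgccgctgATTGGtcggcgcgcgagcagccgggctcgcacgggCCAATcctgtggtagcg
SREBF2: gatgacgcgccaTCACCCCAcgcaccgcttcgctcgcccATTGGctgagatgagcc

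Of the 33 listed genes, 29 have at least 1 promoter window of 300 bases in the RefSeq table, with 250 bases before the start site and 50 after it. The CCAAT box was present in 25 of their 40 windows (62.5%) and in 34.6% of all 35116 windows. The sterol regulatory element was present in 3 of the 40 windows (7.5%), those of SREBF2, MVK and MSMO1, and in 3.95% of all windows. The E-box was present in windows of SCAP, INSIG1, LSS, ABCA1 and SC5D, which is 6 of the 40 windows (15%) against 7.26% of all windows. Of the 12 genes with a window that were called higher with both shRNAs, 9 held a CCAAT box, as did 9 of the 13 in the table that were not called and 2 of the 3 that were called lower. Of the 29 genes 9 have more than 1 window, and a match of letters is a description of the window only.

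The libraries held between 17096170 and 43502389 counts. MECOM, the gene that encodes EVI1, was at 571, 504 and 440 CPM (counts scaled to the size of the library) in the NT libraries, at 145, 143 and 145 CPM with sh#16 and at 109, 107 and 106 CPM with sh#87, so that no knockdown library overlapped NT. Of 9 haematopoietic and myeloid identity markers 7 were in the table, MPO and CD38 not being among them, and their summed level was between 2005 and 2121 CPM in NT and between 353 and 640 CPM in the knockdown libraries. PTPRC and CD34 were detected in every library and fell on average from 855 to 121 CPM and from 731 to 79.3 CPM. With both shRNAs 4 of the 7 markers fell (29.7% of all genes did), 1 rose and 2 were not called (CD33 and ANPEP). The 1 that rose was LYZ, between 0.516 and 0.734 CPM in NT and between 0.938 and 3.12 CPM in the knockdown libraries. With sh#87, 6 of the 7 fell, where 33.6% of all genes did. Of 9 markers of other cell types 3 were in the table, and their sum was between 7.40 and 10.2 CPM in NT and between 30.6 and 33.8 CPM in the knockdown libraries, where COL1A1 was between 25.9 and 30.3 CPM. CD3E, another of the 3, fell from between 7.14 and 10.1 CPM in NT to between 2.64 and 5.26 CPM. The part of these markers in the differences below was not tested. The NT libraries differed more among themselves than the others, with a common biological coefficient of variation of 24.9% against 3.75% with sh#16 and 6.97% with sh#87. Mitochondrially encoded genes took 15.9%, 11.5% and 4.69% of the counts in NT replicates 1, 2 and 3, between 2.69% and 2.88% with sh#16 and between 4.62% and 5.97% with sh#87.

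The NT replicates also differed by GC content. In the quintile of genes richest in GC the median log2 difference of NT replicate 3 over NT replicate 1 was 0.82, and in the poorest quintile it was -0.30. The difference of both shRNAs from NT had medians of 0.69 and -0.39 in the same quintiles. For this reason differences from NT of the lipid synthesis genes are also given after each library's trend on transcript length and GC content was removed, a correction chosen after the data were seen, which left medians of 0.13 and 0.10 in these quintiles. Among the lipid synthesis genes GC content ran from 34.4% (STARD4) to 65.5% (MVD). Of 15 genes with at least 50% GC, 8 were called higher and 1 lower with both shRNAs, where 39.1% of all genes of that GC content were higher and 21.3% lower. Of 16 with less GC, 5 were called higher and 3 lower, where 21.8% and 41.3% of all such genes were.

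With both EVI1-directed shRNAs taken as 1 group, 13 of the 31 genes were higher than in NT and 4 were lower at an adjusted p of at most 0.01 (edgeR quasi-likelihood test, Benjamini-Hochberg adjustment over 16312 genes). The genes that rose were SCAP, INSIG1, MVK, PMVK, MVD, IDI1, SQLE, LSS, TM7SF2, DHCR7, ACSS2, STARD4 and ABCA1, and those that fell were FDFT1, ACACA, ELOVL6 and FADS2. Of all genes tested 30.1% were higher and 29.7% lower, and so the 41.9% of the list called higher stands against 30.1% and the 12.9% called lower against 29.7%. The median log2 fold change was 0.40 over the 31 genes and 0.05 over all genes tested. Fewer genes were called higher without NT replicates 1 and 2, a fit with 1 NT library. The count of lower genes was 8 with the mean of the shRNAs taken from the fit of 3 groups, so that this count depended on the fit. No share of all genes was taken for these 2 settings. In 13 genes all 6 knockdown libraries lay above all 3 NT libraries (33.9% of all genes did) and in 4 they lay below (32.1% of all genes did). After the length and GC correction 14 genes were higher, where 34.6% of all genes were, and 6 were lower, where 29.4% of all genes were. Calls of 9 genes kept their direction and their side of the threshold under all 20 alternative settings, namely the rise of INSIG1, MVK, MVD, IDI1, LSS, TM7SF2 and STARD4 and the fall of ACACA and ELOVL6.

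**Figure D1:**
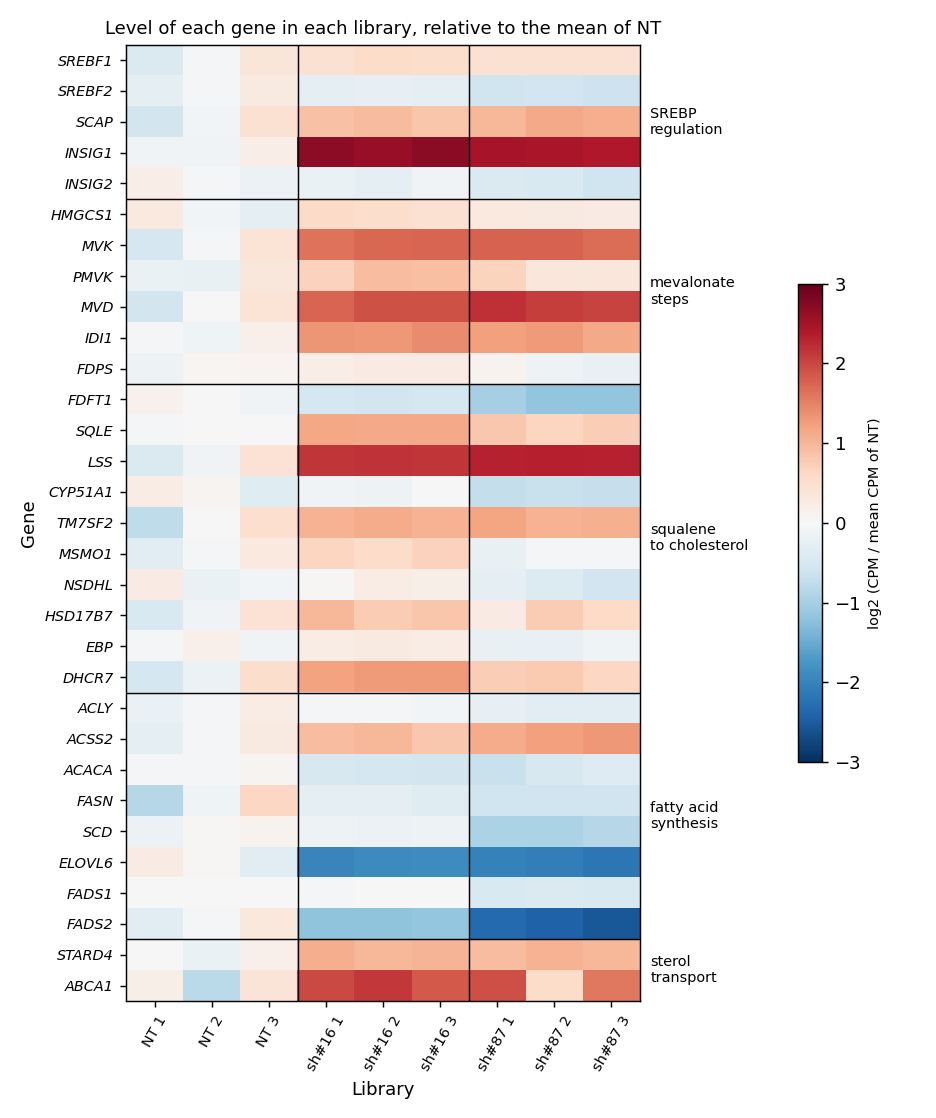
Level of each of the 31 genes (rows, grouped by role) in each of the 9 libraries (columns), as log2 of its CPM over the mean CPM of the 3 NT libraries, with red above and blue below that mean. INSIG1 and LSS are the deepest red and ELOVL6 and FADS2 the deepest blue in the knockdown columns, and most of the fatty acid genes are blue or pale while most of the mevalonate genes are red.

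With the limit set at a log2 fold change of 2 in either direction, 2 genes were higher with both shRNAs, INSIG1 and LSS, and 1 was lower, ELOVL6. Of all genes tested 9.74% passed this limit upwards and 5.66% downwards. ELOVL6 lay at the limit, with a log2 fold change of -2.00, and MVD lay just short of it at 1.98. After the length and GC correction 1 gene passed, INSIG1, with FADS2 just short of the limit at a value that rounds to -2.00. Fewer genes also passed when NT replicates 1 and 2 were left out, which leaves 1 NT library.

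Among the genes that control SREBP, SCAP and INSIG1 rose and none fell with both shRNAs, with a median log2 fold change of 0.49 over the 5 genes. The counts by role, here and below, stand against 30.1% of all genes higher and 29.7% lower. INSIG1, which retains SCAP in the endoplasmic reticulum and is itself a target of SREBP, was at 28.7, 28.4 and 35.3 CPM in NT, at 197, 188 and 202 CPM with sh#16 and at 167 ± 4.29 CPM (SD, n = 3) with sh#87. Every knockdown library was thus far above every NT library. The log2 fold change was 2.66 ± 0.09 (SE) with sh#16 (adjusted p = 5.40e-08) and 2.44 ± 0.09 with sh#87 (adjusted p = 4.17e-08), the largest rise on the list with each shRNA. It was 2.55 with both shRNAs and 2.91 after the correction. INSIG1-DT, a divergent transcript next to INSIG1 on chromosome 7, was between 1.16 and 1.70 CPM in NT and between 5.70 and 7.98 CPM in the knockdown libraries. Whether the counting used strand is not stated, and so reads of genes that overlap on opposite strands cannot be assigned with certainty.

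SCAP, the sterol sensor that escorts SREBP to the Golgi, was at 44.6, 62.3 and 89.4 CPM in NT, between 116 and 126 CPM with sh#16 and between 130 and 143 CPM with sh#87. The groups did not overlap, although the NT libraries were far apart. Its log2 fold change was 0.98 ± 0.18 with both shRNAs (adjusted p = 7.46e-04) and 0.45 ± 0.08 after the correction (adjusted p = 6.71e-04). Without NT replicates 1 and 2, which leaves 1 NT library, the log2 fold change of SCAP was 0.54. SREBF1, which encodes SREBP1, was at 72.8, 96.2 and 128 CPM in NT and between 136 and 144 CPM in the knockdown libraries. Those values did not overlap either, yet the difference of 0.49 ± 0.14 missed the threshold (adjusted p = 0.0113), and the sign turned to -0.18 after the correction (adjusted p = 0.0346). With sh#87 alone SREBF1 was then called lower (-0.27, adjusted p = 2.34e-04). Its exons share 556 bases with RAI1 on the opposite strand.

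SREBF2, which encodes SREBP2, was at 102, 120 and 151 CPM in NT, at 103, 105 and 103 CPM with sh#16 and at 81.9, 83.7 and 81.3 CPM with sh#87. The sh#87 libraries lay below NT, and those of sh#16 lay within it. It was lower with sh#87 (-0.60 ± 0.12, adjusted p = 0.00150) and was not called with sh#16 (-0.27 ± 0.12, adjusted p = 0.0731), and the correction took it below NT with sh#16 too (-0.53, adjusted p = 7.03e-06) and took the value for both shRNAs from -0.42 (adjusted p = 0.0183) to -0.72 (adjusted p = 2.68e-04). INSIG2, the paralog of INSIG1, ranged from 23.6 to 31.0 CPM in NT, from 22.4 to 24.9 CPM with sh#16 and from 17.7 to 19.9 CPM with sh#87. It was called lower with sh#87 (-0.50 ± 0.11, adjusted p = 0.00245), a difference that turned to 0.18 after the correction (adjusted p = 0.0412). With sh#16 INSIG2 was not called as fitted and was called higher after the correction (0.30, adjusted p = 0.00315), so that its direction depended on the correction, and its difference from INSIG1 was not tested.

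**Figure D2:**
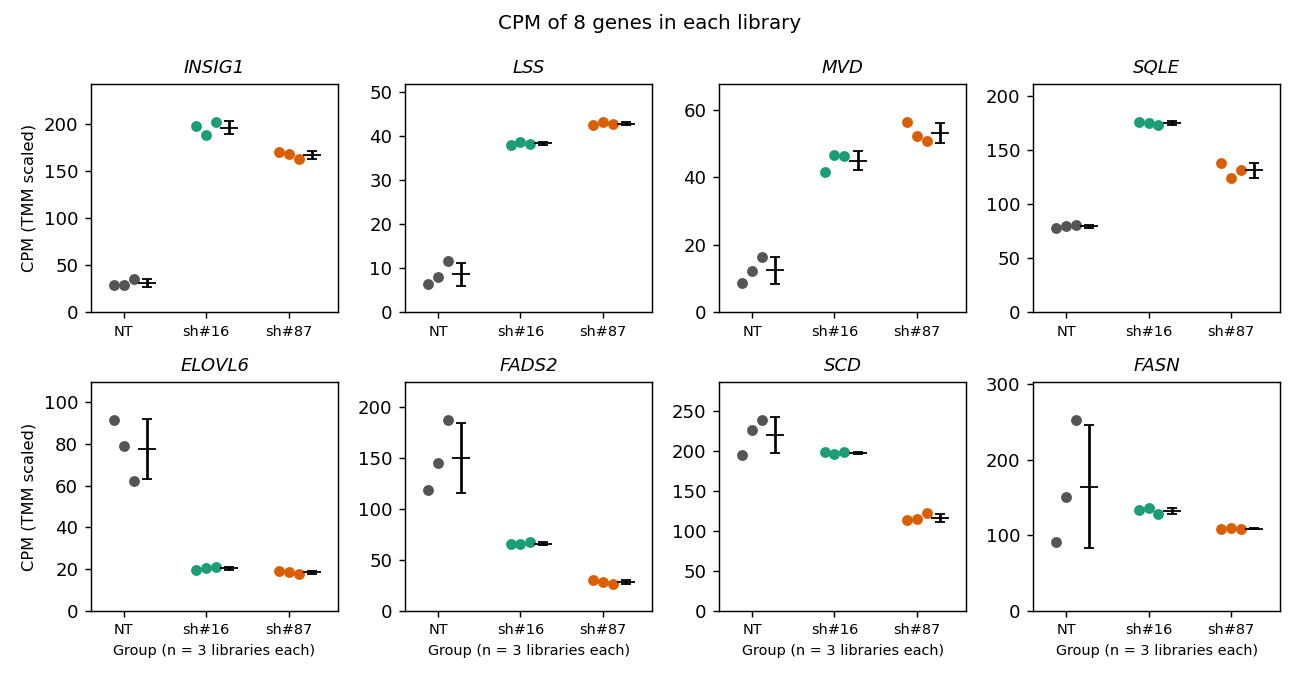
CPM of 8 genes in each library (points, in the order of the replicate numbers within each group) with the mean and SD of each group (bars, n = 3), each panel starting at 0. INSIG1, LSS, MVD and SQLE lie higher in all 6 knockdown libraries and ELOVL6 and FADS2 lower, SCD lies between 113 and 122 CPM with sh#87 alone, and the NT libraries of FASN spread from 90.7 to 252 CPM.

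Of the 6 genes of the mevalonate steps, 4 rose with both shRNAs, none fell and 2 were not called, with a median log2 fold change of 0.97. MVD, which decarboxylates mevalonate diphosphate to isopentenyl diphosphate, was at 8.47, 12.3 and 16.4 CPM in NT, at 41.7, 46.6 and 46.4 CPM with sh#16 and at 56.5, 52.4 and 50.7 CPM with sh#87. Even the highest NT library was far below the lowest knockdown library. The log2 fold change with both shRNAs was 1.98 ± 0.20 (adjusted p = 9.71e-06) and 1.28 ± 0.09 after the correction (adjusted p = 7.01e-07).

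MVK, the kinase that first phosphorylates mevalonate, was at 2.71, 3.68 and 5.07 CPM in NT and between 11.9 and 13.1 CPM in the 6 knockdown libraries. It rose by 1.72 ± 0.18 on the log2 scale (adjusted p = 1.53e-05), or by 1.34 ± 0.11 after the correction (adjusted p = 1.83e-06), and its exons share 225 bases with MMAB on the opposite strand. IDI1, which isomerises isopentenyl diphosphate, was at 21.8, 20.5 and 24.9 CPM in NT and between 49.1 and 60.3 CPM in the knockdown libraries. Neither gene overlapped between NT and knockdown. The rise of IDI1, a gene with 37.9% GC, was 1.28 ± 0.10 (adjusted p = 2.10e-06) and was larger after the correction, at 1.79 ± 0.13 (adjusted p = 7.82e-07). MVD, at 65.5% GC, also rose with and without the correction, which lowered its value. FASN, at 65.3% GC, was called lower after the correction, at -1.34. The part of GC content in these differences was not tested.

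PMVK, the next kinase of the pathway, was at 9.37, 9.23 and 13.7 CPM in NT, between 17.5 and 20.5 CPM with sh#16 and between 13.6 and 17.1 CPM with sh#87, where it overlapped NT. Its call with both shRNAs (0.66 ± 0.19, adjusted p = 0.00842) was lost in 9 of the 20 settings, the correction among them (0.37, adjusted p = 0.0350). HMGCS1, which makes HMG-CoA, was at 37.8, 29.0 and 25.1 CPM in NT, between 42.2 and 45.6 CPM with sh#16 and between 36.2 and 37.6 CPM with sh#87. It was called higher with sh#16 (0.53 ± 0.13, adjusted p = 0.00560) and not with sh#87 (0.27 ± 0.13, adjusted p = 0.0878), a call lost in 8 of the 20 settings, and its value for both shRNAs went from 0.40 (adjusted p = 0.0236) to 0.93 after the correction (adjusted p = 3.91e-06). FDPS, which makes farnesyl diphosphate, differed from NT by 0.08 with a 95% confidence interval from -0.20 to 0.36, and its exons share 693 bases with RUSC1-AS1 on the opposite strand. These 3 genes had smaller differences from NT than MVD, MVK and IDI1.

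Of 10 genes of the squalene to cholesterol role, 4 rose with both shRNAs (SQLE, LSS, TM7SF2 and DHCR7) and 5 were not called. The 1 that fell was FDFT1, which makes squalene and so acts before the other steps. The median log2 fold change of the role was 0.50. LSS, which closes squalene epoxide into lanosterol, was at 6.32, 7.93 and 11.5 CPM in NT, at 37.9, 38.7 and 38.2 CPM with sh#16 and at 42.5, 43.2 and 42.6 CPM with sh#87. The libraries of each shRNA lay within 1 CPM of each other and far above NT. Its log2 fold change was 2.15 ± 0.18 with sh#16 (adjusted p = 7.42e-06) and 2.31 ± 0.18 with sh#87 (adjusted p = 3.21e-06), and 1.95 ± 0.11 with both shRNAs after the correction (adjusted p = 1.24e-07).

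SQLE, the epoxidase that prepares squalene for LSS, was at 77.7, 79.5 and 80.1 CPM in NT, at 176, 175 and 173 CPM with sh#16 and at 138, 124 and 131 CPM with sh#87. Its NT libraries agreed closely, with a 1.03-fold range. The log2 fold change was 1.14 ± 0.06 with sh#16 (adjusted p = 3.00e-07) and 0.73 ± 0.06 with sh#87 (adjusted p = 2.66e-06), and 1.26 with both shRNAs after the correction. FDFT1, the squalene synthase that supplies SQLE, went the other way, at 99.8, 91.2 and 84.9 CPM in NT, at 63.7, 63.1 and 63.3 CPM with sh#16 and at 45.8, 40.6 and 40.5 CPM with sh#87. It fell by 0.54 ± 0.08 on the log2 scale with sh#16 (adjusted p = 2.40e-04) and by 1.12 ± 0.08 with sh#87 (adjusted p = 1.68e-06), and by 0.52 with both shRNAs after the correction (adjusted p = 0.00649). Neighbouring steps of the pathway thus differed in direction, with FDFT1 lower and SQLE and LSS higher in every knockdown library.

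TM7SF2, a sterol reductase that acts after LSS, was at 9.98, 16.9 and 24.2 CPM in NT and between 34.8 and 38.8 CPM in the knockdown libraries. The groups did not overlap, although NT spanned a 2.43-fold range, and the log2 fold change of 1.08 ± 0.22 (adjusted p = 0.00125) was 0.64 ± 0.11 after the correction (adjusted p = 4.52e-04). DHCR7, which reduces the last double bond on the way to cholesterol, was at 8.94, 11.4 and 18.6 CPM in NT, between 29.8 and 31.7 CPM with sh#16 and at 21.4 ± 1.23 CPM (SD, n = 3) with sh#87. Its log2 fold change with both shRNAs was 1.01 ± 0.25 (adjusted p = 0.00395) and 0.78 after the correction (adjusted p = 0.00507), while with sh#87 alone it was not called (0.71, adjusted p = 0.0155, and 0.47 after the correction). The call with both shRNAs was lost without NT replicate 1 and without NT replicate 2. Without both of these, which leaves 1 NT library, the log2 fold change of DHCR7 was 0.50.

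CYP51A1, the demethylase of lanosterol, was between 28.4 and 42.4 CPM in NT, between 32.7 and 36.1 CPM with sh#16 and between 22.0 and 23.0 CPM with sh#87. It was called lower with sh#87 (-0.69 ± 0.13, adjusted p = 0.00114) but not after the correction, and with sh#16 the sign of its small difference of -0.09 turned to 0.33 after the correction (adjusted p = 0.00237). MSMO1, an oxidase of sterol methyl groups, was at 10.4, 12.7 and 15.9 CPM in NT, at 20.4, 18.9 and 20.9 CPM with sh#16 and at 11.1, 12.4 and 12.6 CPM with sh#87. It was higher with sh#16 (0.62 ± 0.14, adjusted p = 0.00370), a call lost in 5 of the 20 settings, while its sh#87 libraries lay within NT (-0.12 ± 0.14, adjusted p = 0.460).

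HSD17B7, a reductase of the same demethylation complex, had between 26 and 121 counts per library and was called with sh#16 alone (0.85 ± 0.24, adjusted p = 0.00998), a call lost in 11 of the 20 settings. After the correction it was higher with both shRNAs (0.92, adjusted p = 0.00690). The pseudogene HSD17B7P2 was between 0.821 and 1.70 CPM, and reads could be shared between the copies. NSDHL, a dehydrogenase of that complex, and EBP, the sterol isomerase, differed from NT by -0.10 and 0.04 with both shRNAs, with 95% confidence intervals from -0.54 to 0.34 and from -0.29 to 0.37. Neither was called in any comparison with NT, and both differed in sign between the shRNAs.

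**Figure D3:**
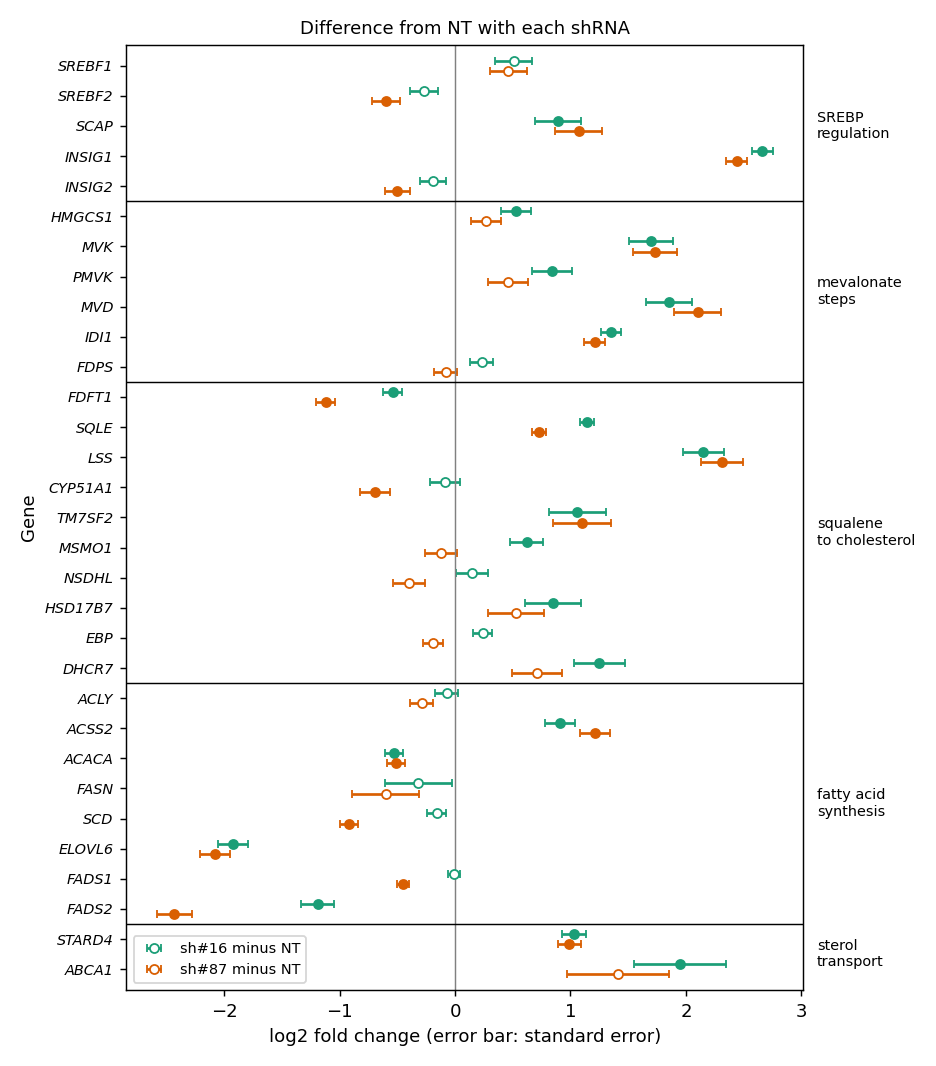
Log2 fold change of each gene with sh#16 (green) and sh#87 (orange) against the same 3 NT libraries, with the standard error as bars and filled points for an adjusted p of at most 0.01. INSIG1, LSS, MVD and MVK lie between 1.70 and 2.66 with each shRNA, whereas FADS2 lies at -1.19 with sh#16 and at -2.43 with sh#87.

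Among the 8 genes of fatty acid synthesis, 1 rose with both shRNAs (ACSS2), 3 fell (ACACA, ELOVL6 and FADS2) and 4 were not called, with a median log2 fold change of -0.47. ELOVL6, which lengthens palmitate to stearate, was at 91.4, 79.1 and 62.5 CPM in NT, at 19.7, 20.6 and 21.1 CPM with sh#16 and at 19.1, 18.5 and 17.4 CPM with sh#87. All knockdown libraries lay within 4 CPM of each other and below NT. It fell by 1.92 ± 0.13 on the log2 scale with sh#16 (adjusted p = 1.85e-06) and by 2.08 ± 0.13 with sh#87 (adjusted p = 7.59e-07), and by 1.56 ± 0.08 with both shRNAs after the correction (adjusted p = 6.01e-08).

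FADS2, the first desaturase of polyunsaturated fatty acids, was at 119, 145 and 187 CPM in NT, at 65.1, 65.1 and 67.3 CPM with sh#16 and at 30.0, 28.1 and 25.7 CPM with sh#87. The 3 groups did not overlap. It fell by 1.19 ± 0.14 on the log2 scale with sh#16 (adjusted p = 7.05e-05) and by 2.43 ± 0.15 with sh#87 (adjusted p = 6.96e-07), and its log2 fold change with both shRNAs after the correction was -2.00 (adjusted p = 2.45e-04). FADS1, the later desaturase encoded next to it on the opposite strand, was at 81.4, 80.9 and 81.9 CPM in NT, between 77.7 and 82.2 CPM with sh#16 and between 59.2 and 60.1 CPM with sh#87. It did not differ beyond the spread with sh#16 (-0.01 ± 0.05, adjusted p = 0.821, 95% confidence interval from -0.13 to 0.11) and was lower with sh#87 (-0.45 ± 0.05, adjusted p = 4.65e-05). After the correction it was called higher with sh#16 (0.19, adjusted p = 0.00647), where the correction moved the median of all genes by 0.13. FADS1 (chr11:61799627-61817003, GRCh38.p14) and FADS2 (chr11:61816203-61867354) share 490 bases of exon, so that some reads may be split between them.

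SCD, the desaturase that makes oleate from stearate, was at 195, 226 and 238 CPM in NT, at 198, 196 and 198 CPM with sh#16 and at 113, 114 and 122 CPM with sh#87. The sh#16 libraries overlapped NT and the sh#87 libraries did not. The log2 fold change was -0.16 ± 0.08 with sh#16 (adjusted p = 0.0988) and -0.92 ± 0.08 with sh#87 (adjusted p = 5.69e-06). ACACA, the acetyl-CoA carboxylase that commits carbon to fatty acids, was at 110, 111 and 122 CPM in NT and between 72.1 and 87.2 CPM in the knockdown libraries. It fell with each shRNA, by 0.53 ± 0.08 and 0.51 ± 0.08 on the log2 scale (adjusted p = 3.27e-04 and 3.35e-04), and by 0.57 ± 0.07 with both after the correction.

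FASN, the synthase of palmitate, was at 90.7, 150 and 252 CPM in NT, at 133, 136 and 128 CPM with sh#16 and at 108, 109 and 108 CPM with sh#87. The NT libraries spanned a 2.78-fold range, the widest on the list, and enclosed every knockdown library. No call was made with both shRNAs (-0.45 ± 0.24, adjusted p = 0.119, 95% confidence interval from -0.99 to 0.09), whereas it was called lower after the correction (-1.34 ± 0.16, adjusted p = 2.79e-05). Without NT replicates 1 and 2, which leaves the 1 NT library at 252 CPM, the log2 fold change of FASN was -1.06. The value for FASN, with 65.3% GC, thus depended on the NT libraries and on the correction.

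ACSS2, which makes acetyl-CoA from acetate, was at 15.4, 18.2 and 22.3 CPM in NT, at 35.5, 36.9 and 32.6 CPM with sh#16 and at 40.3, 43.6 and 45.6 CPM with sh#87. It was the gene of this role that rose, by 1.07 ± 0.15 on the log2 scale with both shRNAs (adjusted p = 1.09e-04) and by 1.08 ± 0.13 after the correction (adjusted p = 3.05e-05). ACLY, which makes acetyl-CoA from citrate, was between 235 and 315 CPM in NT, between 253 and 260 CPM with sh#16 and between 217 and 226 CPM with sh#87. It was not called in any of these comparisons (both shRNAs -0.17 ± 0.11, adjusted p = 0.183). The enzymes that supply acetyl-CoA from acetate and from citrate thus differed in their calls, and the difference between them was not tested.

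Both sterol transport genes in the table rose with both shRNAs, and STARD4 alone was called with sh#87. STARD4, a cytosolic carrier of cholesterol, was at 13.2, 11.4 and 14.6 CPM in NT and between 25.0 and 27.7 CPM in all 6 knockdown libraries. The groups were far apart relative to their spread, and the log2 fold change was 1.01 ± 0.10 with both shRNAs (adjusted p = 1.10e-05) and 1.60 ± 0.15 after the correction (adjusted p = 3.80e-06). ABCA1, an exporter of cholesterol driven by the LXR receptors, had 4, 2 and 6 counts in the NT libraries, 15, 31 and 10 counts with sh#16 and 14, 5 and 9 counts with sh#87. Its counts were the lowest on the list, and the call with both shRNAs (1.71 ± 0.42, adjusted p = 0.00400) was lost without NT replicate 1 and without NT replicate 2. It was not called with sh#87 (1.41, adjusted p = 0.0149, and 1.49 after the correction, adjusted p = 0.0113).

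**Figure D4:**
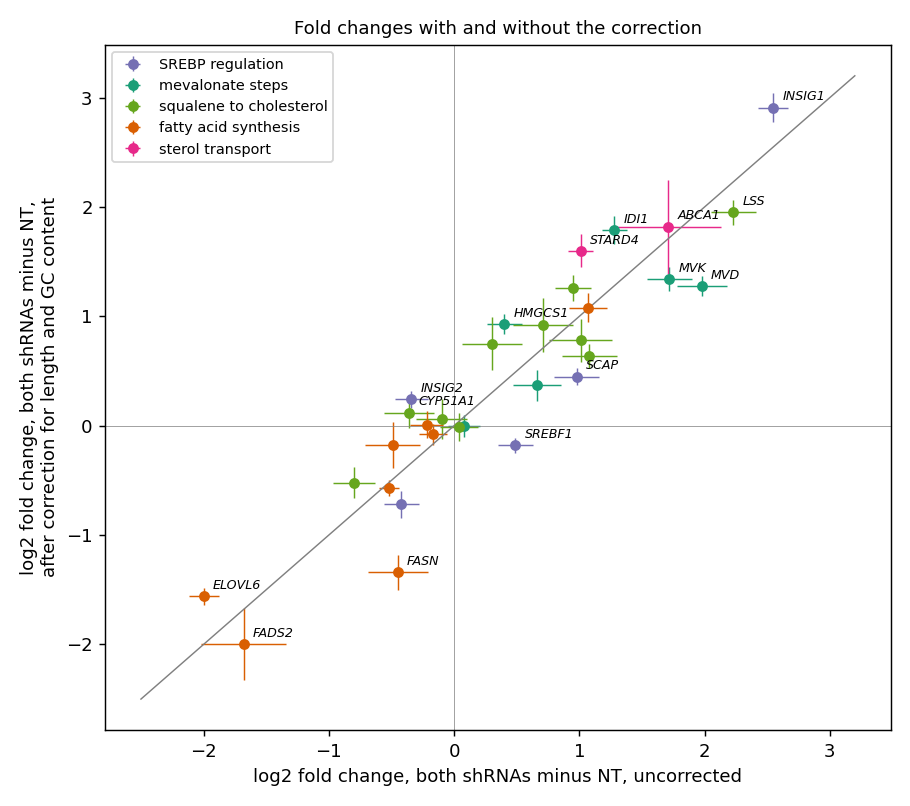
Log2 fold change of each gene with both shRNAs against NT as fitted (horizontal) and after correction for transcript length and GC content (vertical), with standard errors, coloured by role, and with the line of equality. INSIG1 and LSS stay at the upper right and ELOVL6 and FADS2 at the lower left, FASN moves from -0.45 to -1.34, and SREBF1 moves from 0.49 to -0.18.

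With each shRNA taken alone, 16 of the 31 genes were higher and 4 lower with sh#16, against 29.8% and 30.2% of all genes. With sh#87, 10 were higher and 9 lower, against 34.3% and 33.6% of all genes. These comparisons share the NT libraries and are given side by side. By role, the mevalonate steps had 5 higher genes with sh#16 and 3 with sh#87, with none lower. In the squalene to cholesterol role 6 were higher and 1 lower (FDFT1) with sh#16. With sh#87, 3 of that role were higher and 2 lower (FDFT1 and CYP51A1). In fatty acid synthesis 1 was higher and 3 lower with sh#16, and 1 was higher and 5 lower with sh#87.

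The shRNAs were compared directly to ask where the genes differed between them. With sh#87, 8 of the 31 genes were lower than with sh#16 (FDFT1, SQLE, CYP51A1, MSMO1, EBP, SCD, FADS1 and FADS2) and 0 were higher, where 9.42% of all genes were lower and 8.29% higher. Leaving out 1 library at a time gave 5 to 13 lower genes, with 13 without NT replicate 3. In this fit of all 3 groups no gene of the list was higher at an adjusted p of at most 0.05 with edgeR, and none was by DESeq2 or limma-voom at 0.01. At an unadjusted p under 0.05 ACSS2 was the 1 gene higher with sh#87. The median log2 difference was -0.30 over the 31 genes and -0.02 over all genes tested. In 21 genes all 3 sh#87 libraries lay below all 3 sh#16 libraries (34.3% of all genes did), and in 4 they lay above (31.1% of all genes did). MECOM itself lay lower in each sh#87 library (106 to 109 CPM) than in each sh#16 library (143 to 145 CPM), and its part in these differences was not tested.

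The largest of these differences was in FADS2, at -1.24 ± 0.15 on the log2 scale (adjusted p = 5.08e-04), followed by SCD at -0.76 ± 0.08 (adjusted p = 2.96e-04) and MSMO1 at -0.74 ± 0.14 (adjusted p = 0.00503). CYP51A1 differed by -0.60 ± 0.13 (adjusted p = 0.00907) and FDFT1 by -0.58 ± 0.08 (adjusted p = 9.94e-04). FADS1 and EBP each differed by -0.44 (adjusted p = 5.94e-04 and 0.00481), and SQLE by -0.41 ± 0.06 (adjusted p = 9.05e-04). The calls thus joined 3 desaturases of fatty acids with 5 genes of the squalene to cholesterol role, FDFT1 among them. Those of FDFT1, SQLE, SCD, FADS1 and FADS2 held in all 20 settings, while CYP51A1 lost its call in 11, MSMO1 in 8 and EBP in 7.

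For genes that rose most with each shRNA the difference between the shRNAs was not called in the fit of all 3 groups. The 95% confidence interval of sh#87 minus sh#16 ran from -0.23 to 0.54 for LSS, from -0.18 to 0.67 for MVD, from -0.37 to 0.43 for MVK and from -0.25 to 0.17 for STARD4. For ELOVL6 it ran from -0.45 to 0.13 and for INSIG1 from -0.42 to -0.03 (adjusted p = 0.0690). In a fit of the sh#16 and sh#87 libraries alone, which leaves out the wide spread of NT, 18 genes were lower (24.6% of all genes) and 4 were higher with sh#87 (23.5% of all genes). The 4 were SCAP, MVD, LSS and ACSS2, and INSIG1 was among the lower ones (-0.21, adjusted p = 0.00127).

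**Figure D5:**
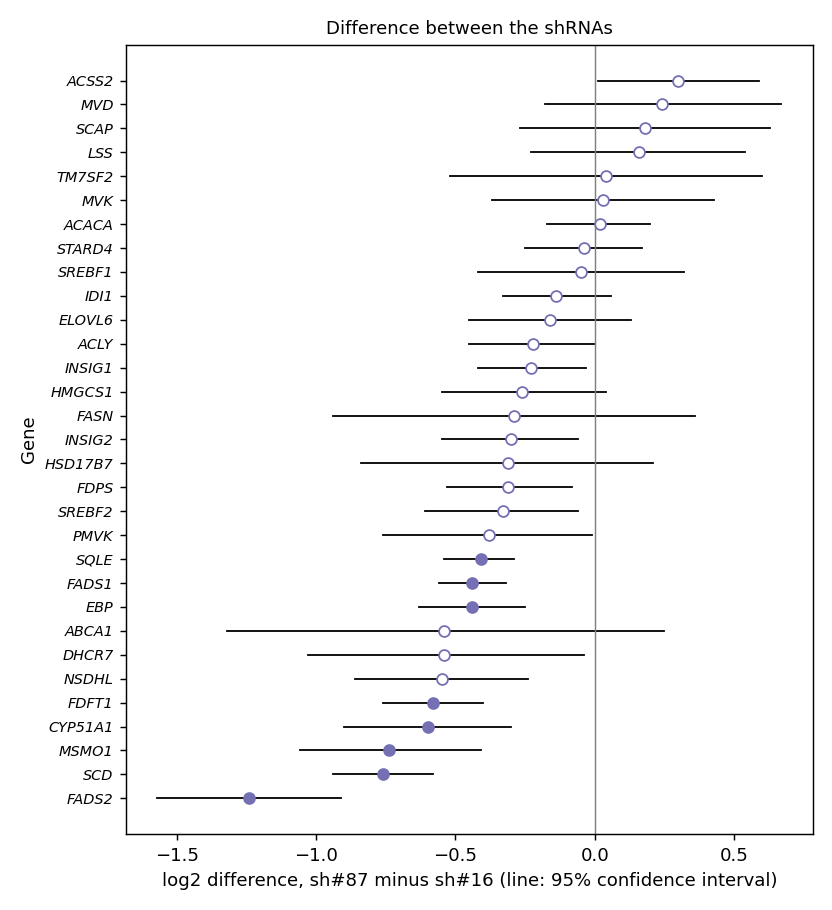
Log2 difference of sh#87 minus sh#16 for each gene, sorted, with its 95% confidence interval as a line and filled points for an adjusted p of at most 0.01. The 8 filled points all lie below 0, between -1.24 for FADS2 and -0.41 for SQLE, and the intervals of MVK, LSS, STARD4 and ACACA span 0.

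Other genes of the same biology were counted by list, where 30.1% of all genes were higher and 29.7% lower with both shRNAs. Of 12 genes of SREBP cleavage and INSIG turnover 5 rose and 2 fell with both shRNAs. SAR1B, a GTPase of the vesicles that leave the endoplasmic reticulum, averaged 29.2 ± 1.15 CPM in the 3 NT libraries and 79.2 ± 11.2 CPM (SD) in the 6 knockdown libraries, and RNF145, a ubiquitin ligase of the sterol response, 84.8 ± 3.44 and 39.2 ± 4.53 CPM. Their adjusted p-values by edgeR were 5.48e-06 and 6.49e-06. UFD1, a cofactor that draws ubiquitinated proteins out of the membrane, rose by 1.32 ± 0.17 on the log2 scale. Of 12 genes of the isoprenoid branch, which uses farnesyl diphosphate for other ends, 1 rose and 5 fell. PGGT1B, a subunit of a protein geranylgeranyl transferase, fell by 1.45 ± 0.12 and FNTB, a subunit of the farnesyl transferase, by 0.84 ± 0.14, while DHDDS, which serves dolichol synthesis, rose by 1.03 ± 0.16. After the correction the log2 fold changes were 1.94 for SAR1B, -0.74 for RNF145 and 1.61 for UFD1. They were -0.90 for PGGT1B, -0.79 for FNTB and 1.10 for DHDDS.

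Of 11 genes of sterol uptake, storage and transport that were tested, 5 rose and 1 fell. NPC2 and NPC1, which pass cholesterol out of the lysosome, went from 12.6 ± 0.323 to 48.9 ± 1.94 CPM and from 32.4 ± 4.98 to 79.9 ± 10.8 CPM (SD, n = 3 and 6), and STARD3, a sterol carrier of late endosomes, rose by 1.45 ± 0.25 on the log2 scale. Of 9 LXR receptors and targets 3 rose and 1 fell. ABCA7, a lipid transporter, rose from 18.5 ± 6.92 to 142 ± 47.3 CPM, RXRA, the partner of the LXR receptors, fell by 1.56 ± 0.21, and ABCG4, a sterol exporter, was at 0.0288 ± 0.0249 CPM in NT, less than 3 counts per library, and at 0.524 ± 0.185 CPM in the knockdown libraries. Corrected log2 fold changes were 2.11 for NPC2, 1.53 for NPC1 and 1.08 for STARD3. They were 2.10 for ABCA7 (2.94 as fitted), -2.06 for RXRA and 3.71 for ABCG4. For these lists, as for the 31 genes, the shares stand against 30.1% of all genes higher and 29.7% lower.

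Of 21 genes of fatty acid activation, elongation and lipid assembly 7 rose and 6 fell, where 30.1% of all genes rose and 29.7% fell. FADS3, a desaturase of the same gene cluster as FADS1 and FADS2, went from 1.37 ± 0.350 CPM in NT to 30.0 ± 3.61 CPM in the knockdown libraries, opposite in direction to FADS2. ACSL5, which activates long-chain fatty acids, fell from 62.4 ± 3.33 to 5.52 ± 2.01 CPM, and DGAT2, which makes triglyceride, rose from 0.990 ± 0.183 to 6.60 ± 1.98 CPM. Of 18 genes of fatty acid oxidation 5 rose and 3 fell, against the same shares of all genes. PPARD, a nuclear receptor for fatty acids, rose by 2.40 ± 0.26 on the log2 scale and ACADM, a medium-chain acyl-CoA dehydrogenase, fell by 1.38 ± 0.14. ACADVL, its very-long-chain counterpart, rose by 1.17 ± 0.17 and stayed higher after the correction (0.95, adjusted p = 1.91e-04). The corrected values of PPARD and ACADM were 2.02 and -0.81. Those of FADS3, ACSL5 and DGAT2 were 3.94, -3.11 and 2.61.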

How the data were processed

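PolyA-selected, strand-specific libraries of HNT34 cells (NT, sh#16 and sh#87, 3 each) were analysed. One table of estimated counts, not normalized, was deposited by the authors for all 9 libraries, with genes given by symbol. The file header names salmon, the methods name STAR gene counts on GRCh38, and the submitters' processing notes name FastQC and STAR. All values were whole numbers. The members and lists were chosen with earlier results of these data known.

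Counts were filtered (filterByExpr), scaled (TMM) and tested with the edgeR 4.0.16 quasi-likelihood test in R 4.3.3, using 2 groups for both shRNAs against NT and 3 groups for single shRNAs. Genes were called at a Benjamini-Hochberg adjusted p of at most 0.01 over 16312 genes. Standard errors were derived from the log2 fold change and the F statistic of this test, and the confidence intervals rest on them. The fit was also run on simulated counts with the same spread in every group. That run cannot speak to the wider spread of the NT libraries. All 31 members in the table passed the filter. The text names all of these and, of each other list, up to 3 genes with the largest change called with each shRNA and without overlap, with MECOM as the targeted gene.

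Alternatives were RLE and upper-quartile scaling, other filters and thresholds, DESeq2 1.42.0, limma-voom (limma 3.58.1), a replicate block, other groups in the fit, no mitochondrially encoded genes, and each library left out. After the data were seen, NT replicates 1 and 2 were left out together, and a loess correction (span 0.5, degree 1) for length and GC content was added. Length, GC and exon overlaps came from GENCODE transcripts on GRCh37, found for 84.4% of genes and all 31 members. Positions and promoters came from RefSeq (GRCh38.p14). No replicate pair was identical, with a chi-square per gene between 2.39 and 293. Limits of detection rest on 3 counts and cover counting error only.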

Additional observations from a re-analysis of the deposited data

Results flagged for a closer look

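The response of 8 genes differed between the shRNAs by the direct test. The log2 difference of sh#87 minus sh#16 was -0.58 for FDFT1, -0.41 for SQLE, -0.60 for CYP51A1, -0.74 for MSMO1, -0.44 for EBP, -0.76 for SCD, -0.44 for FADS1 and -1.24 for FADS2 (edgeR, adjusted p of at most 0.01). Of all genes tested 9.42% were called lower in this comparison. The lowest sh#16 library was above the highest sh#87 library for all 8, as it was for 34.3% of all genes. The 8 were picked by a test on the same libraries, so that this separation is not separate evidence. After the length and GC correction MSMO1 was no longer called (-0.55, adjusted p = 0.0640), and the other 7 still were.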

How the results depend on the processing

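Over 20 alternative settings 2479 values of the 31 genes were recomputed, of which 2252 kept their direction and side of the threshold, 89 lost and 99 gained a call, and 39 changed direction. Of these 39, 1 had been called, INSIG2 with sh#87. The cause was not tested for any of them. The counts that follow describe how calls of the listed genes moved between settings. Shares of all genes were not taken for most of these settings, so that the counts are not set against all genes. With an added limit of 1 on the log2 fold change, 2 genes were lower with both shRNAs, 10 higher and 2 lower with sh#16, 3 lower with sh#87 and 1 lower in sh#87 against sh#16. With other groups in the fit 8 were lower with both shRNAs, and 4 were higher and 18 lower in sh#87 against sh#16 (23.5% and 24.6% of all genes). Without NT replicates 1 and 2, a fit with 1 NT library, fewer genes were higher with both shRNAs and fewer passed a log2 fold change of 2. More were then lower with sh#16, and more were called in sh#87 against sh#16. After the length and GC correction 1 gene passed a log2 fold change of 2. Leaving out 1 library at a time gave 10 to 15 genes higher and 4 to 6 lower with both shRNAs, 11 to 17 and 4 to 7 with sh#16 (7 without NT replicate 1), 9 to 14 and 8 to 11 with sh#87, and 0 to 1 and 5 to 13 between the shRNAs (1 and 13 without NT replicate 3), and 2 to 4 past 2. Signs turned after the length and GC correction with both shRNAs (SREBF1 -0.18, INSIG2 0.24, FDPS -0.00, CYP51A1 0.12, NSDHL 0.06, EBP -0.01, FADS1 0.01), with sh#16 (SREBF1 -0.10, INSIG2 0.30, CYP51A1 0.33, ACLY 0.02, SCD 0.13, FADS1 0.19), with sh#87 (SREBF1 -0.27, INSIG2 0.18, MSMO1 0.45) and between the shRNAs (MVK -0.02, IDI1 0.05, ACACA -0.05, STARD4 0.14). Upper-quartile scaling, which moved the median of all genes by 0.11 with both shRNAs, turned NSDHL with both (0.01), CYP51A1 (0.01), ACLY (0.04) and FADS1 (0.09) with sh#16 and FDPS with sh#87 (0.04). The correction moved that median by 0.15, and the medians with sh#16 and with sh#87 by 0.13 and 0.17. Without NT replicates 1 and 2 CYP51A1 turned with both (0.00) and with sh#16 (0.26), and with other groups in the fit FADS1 turned with sh#16 (0.01). With 1 library left out, signs turned for NSDHL (range -0.19 to 0.03) and EBP (-0.03 to 0.12) with both, CYP51A1 (-0.27 to 0.02), ACLY (-0.17 to 0.04), FASN (-0.62 to 0.11) and FADS1 (-0.04 to 0.02) with sh#16, MSMO1 with sh#87 (-0.27 to 0.04), and MVK (-0.00 to 0.06), TM7SF2 (-0.00 to 0.07) and ACACA (-0.04 to 0.09) between the shRNAs. No pairing by replicate number was seen, since 0 of 9 same-numbered pairs had a correlation of deviations over 0.1 and 2 libraries correlated best with their own number. With 3 libraries per group and the wide spread of NT, this check cannot exclude a pairing. With the replicate block 12 genes were higher and 4 lower with both shRNAs, 15 and 4 with sh#16, 10 and 9 with sh#87, and 0 and 6 between the shRNAs. The lowest counts, 2 to 31 for ABCA1, limit what can be said of that gene.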
